A study of Mus musculus with 7 samples.

Results

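The 9 genes described here encode components and receptors of the complement system: the C1q chains C1qa, C1qb and C1qc, the central component C3, the alternative pathway proteins factor B (Cfb) and properdin (Cfp), and the anaphylatoxin receptors C3ar1, C5ar1 and C5ar2. They were taken by symbol, and all 9 were found among the 48440 genes of the LPS table and the 55352 genes of the AAV table. Both tables come from mRNA sequencing of bone-marrow-derived macrophages (BMDMs), grown from the marrow of WT C57BL/6 mice with M-CSF at 20 ng per mL. In the first experiment WT BMDMs were left without treatment (0 h) or given lipopolysaccharide (LPS), a cell-wall molecule of Gram-negative bacteria, at 100 ng per mL, and 1 library was made at 2 h, 1 at 4 h and 1 at rest. The other experiment used adeno-associated virus (AAV) that carried GFP or Shisa3, left on the cells for 48 h, and each group has 2 samples. The CAG promoter, which is active in most cell types, drives both transgenes, so both AAV groups carry a viral vector and received no LPS, and no AAV sample was left without virus. No label says that samples came from separate mice, so the p-values below measure only the spread between these samples, which may be technical.

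Complement is a set of plasma and cell-surface proteins that tag targets and call in phagocytes. C1q recognises immune complexes and dying cells and starts the classical pathway, C3 is the component on which all pathways converge, and factor B joins cleaved C3 to form the convertase of the alternative pathway, which properdin stabilises. The fragments C3a and C5a act on G-protein-coupled receptors of myeloid cells, except that C5ar2 does not signal through G proteins and is often described as a regulator of C5a responses. The liver makes most plasma complement, but macrophages are the main source of C1q and make C3, factor B and properdin locally.

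The files give no coordinates. By the GENCODE M21 annotation of GRCm38, where 99.2% of the LPS table's identifiers were found, the 3 C1q genes lie side by side on chromosome 4, with C1qb (ENSMUSG00000036905.8) at chr4:136880129-136886187, C1qc at chr4:136889804-136893065 and C1qa (ENSMUSG00000036887.5) at chr4:136895917-136898803. On chromosome 7 the C5a receptors are neighbours, with C5ar2 at chr7:16234585-16244154 and C5ar1 at chr7:16246743-16259540. C3 lies at chr17:57203970-57228136, Cfb at chr17:34856374-34862518, Cfp at chrX:20925454-20931555 and C3ar1 at chr6:122847138-122856161. All 9 genes are on the minus strand.

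RefSeq start sites on GRCm38.p6 gave a promoter window, from 250 bases before to 50 bases after the start, for 7 of the 9 members, with 2 starts for C5ar2. C1qa and Cfb were not among the windows used. Both strands were searched for 4 motifs: a kappa B pattern (NF-κB), an interferon-stimulated response element, TTGCNNAA (C/EBP) and GAGGAA (PU.1, a factor of the myeloid lineage). Only a single form of the kappa B site was searched, so windows without it may hold other forms. Over 32851 promoter windows of the same length they were found in 1.63%, 3.44%, 10.8% and 28.3%, respectively. No overlap between motifs was found in the members' windows. 4 windows are printed on the minus strand, 5′ to 3′, with the match in capitals. The neighbouring pair C1qb (chr4:136886151-136886450) and C1qc (chr4:136892865-136893164) each hold the PU.1 letters, and C3 (chr17:57228087-57228386) holds those of C/EBP. C3ar1 (chr6:122856108-122856407) is the only member window with the letters of the kappa B form searched.
C1qb: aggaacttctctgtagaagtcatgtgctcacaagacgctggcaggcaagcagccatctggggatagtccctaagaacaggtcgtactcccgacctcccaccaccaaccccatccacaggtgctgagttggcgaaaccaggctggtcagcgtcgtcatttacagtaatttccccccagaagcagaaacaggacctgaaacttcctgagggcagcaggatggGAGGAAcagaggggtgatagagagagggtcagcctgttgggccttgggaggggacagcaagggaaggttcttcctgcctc
C1qc: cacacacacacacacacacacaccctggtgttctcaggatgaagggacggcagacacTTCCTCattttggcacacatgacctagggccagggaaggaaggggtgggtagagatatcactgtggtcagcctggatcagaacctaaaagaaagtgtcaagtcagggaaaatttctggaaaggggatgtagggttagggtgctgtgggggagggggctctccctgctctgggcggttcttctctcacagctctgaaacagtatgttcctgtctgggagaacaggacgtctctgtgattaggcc
C3: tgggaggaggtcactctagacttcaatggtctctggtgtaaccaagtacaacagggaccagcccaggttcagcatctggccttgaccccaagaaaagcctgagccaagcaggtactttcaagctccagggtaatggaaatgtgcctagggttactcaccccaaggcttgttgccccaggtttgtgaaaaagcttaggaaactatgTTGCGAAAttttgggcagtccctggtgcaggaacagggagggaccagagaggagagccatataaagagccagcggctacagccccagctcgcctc
C3ar1: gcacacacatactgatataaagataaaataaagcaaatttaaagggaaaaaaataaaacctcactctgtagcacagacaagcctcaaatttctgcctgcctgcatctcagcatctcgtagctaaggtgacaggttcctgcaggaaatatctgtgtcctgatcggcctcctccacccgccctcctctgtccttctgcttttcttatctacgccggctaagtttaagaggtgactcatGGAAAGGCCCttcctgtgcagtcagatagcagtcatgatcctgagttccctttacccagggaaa
Counted from the start site, the first matched base was at -30 in C1qb, -193 in C1qc, -45 in C3 and -14 in C3ar1. The Cfp window held the PU.1 letters 2 times, at 7 and 23 bases past the start. In C5ar2, the PU.1 letters stood at -26 of the downstream start and those of C/EBP at -166 and -210 of the upstream start. None of the 4 motifs was in the C5ar1 window, and none of the member windows held the interferon-stimulated letters. A match is a description of letters and not a bound site.

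The deposited LPS values are read counts divided by 1 factor per library. All of them were whole multiples of 1 step per library within 0.001, so reads could be recovered: 15588502 at 0 h, 7263258 at 2 h and 32659392 at 4 h, which makes the 2 h library the shallowest. With 1 library per time point no test was possible, the differences below are between libraries, and 95% Wilson intervals cover counting error only. A log2 ratio is taken on the authors' values with a pseudocount of 1. Scaling to library totals instead moved the median log2 ratio over 17854 genes (those whose mean value reached 1) from -0.05 to -0.70 at 2 h and from -0.04 to -0.82 at 4 h, so values with that scaling are given beside the members' ratios to 0 h. Tnf, a gene LPS induces early, had values of 137, 36109 and 19042 at 0, 2 and 4 h. Macrophage markers were abundant throughout, with a summed value over 8 genes, mostly of Lyz2, of 326399, 328557 and 309296, or 32550, 20715 and 17428 per 1000000 reads, whereas the 6 hepatocyte markers, Alb among them, had no read in any library.

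At rest, the C1q chains led the members. Per kilobase of exon, C1qb stood at rank 29 of 18541 genes with reads, C1qc at rank 69 and C1qa at rank 95, followed by Cfp at 168 and C3ar1 at 176. C5ar1 was at rank 874 and C3 at 2811. Cfb at rank 9762 and C5ar2 at rank 8819 were the lowest, with 105 and 177 reads. The 9 genes together took 0.383% of the reads at 0 h, 0.470% at 2 h and 0.477% at 4 h, but the order among them changed: at 4 h Cfb was at rank 169, C3 at rank 497 and C5ar1 at rank 484 of 19708, whereas C5ar2 had gone to rank 13321.

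**Figure D1:**
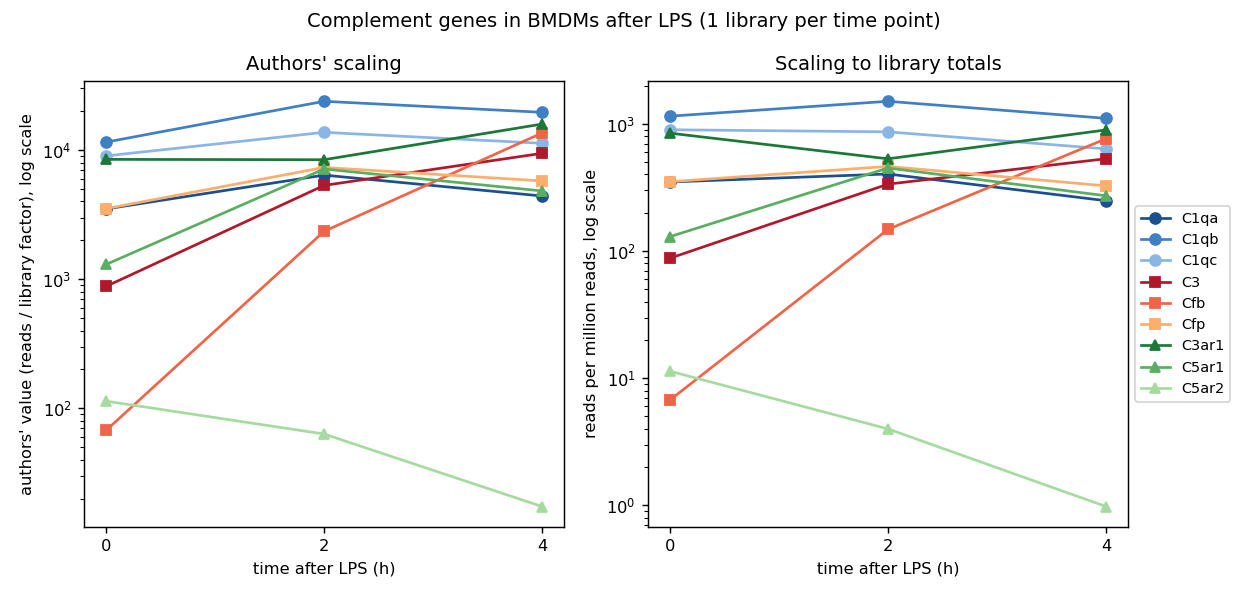
Values of the 9 complement genes at 0, 2 and 4 h of LPS, on log axes, as the authors' values (left) and as reads per 1000000 reads (right); each point is 1 library. Cfb, C3 and C5ar1 were higher and C5ar2 lower at 4 h than at 0 h in both panels, whereas the C1q chains and Cfp were above their 0 h level at 4 h on the left and below it on the right.

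At 2 h of LPS, 5 of the 9 members were at least 2-fold higher and none was at least 2-fold lower, against 20.5% and 24.7% of all genes tested. Scaled to library totals the counts were 3 and 1, against 13.7% and 40.3%. Those 3 were Cfb, C3 and C5ar1, and the other 2, Cfp and C1qb, were close to the limit of 2-fold. At 4 h, 3 members (again Cfb, C3 and C5ar1) were at least 2-fold higher and 1 (C5ar2) at least 2-fold lower. Over all genes the shares were 22.2% and 23.6%. With library totals the members' counts were 3 and 1 as well, against 13.8% and 44.3% of all genes. With centring on library medians they were 6 and 1, against 5285 and 3036 of all 17854 genes. Under that centring C1qb, Cfp and C3ar1 also passed 2-fold. The members' median log2 ratio was 1.05 at 2 h and 0.77 at 4 h, but 0.39 and -0.06 with library totals, so its sign at 4 h depends on the scaling.

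The C1q chains differed less between the libraries than C3 or Cfb. C1qb, the most abundant, had values of 11511, 23837 and 19586 at 0, 2 and 4 h, from 17894, 10916 and 36043 reads. C1qa had 3498, 6396 and 4408, and C1qc 9005, 13711 and 11273. For each chain the 2 h library was the highest on this scale. At 4 h the log2 ratio to 0 h was 0.77 for C1qb, 0.33 for C1qa and 0.32 for C1qc, but -0.06, -0.49 and -0.50 with library totals, so no direction against 0 h can be given. From 2 h to 4 h all 3 were lower under every scaling, with log2 ratios of -0.28 for C1qb, -0.28 for C1qc and -0.54 for C1qa.

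Shares of reads within a library need no scaling. C1qb made up 47.9% (95% interval 47.4 to 48.4) of the C1q reads at 0 h, 54.2% (53.6 to 54.9) at 2 h and 55.5% (55.2 to 55.9) at 4 h. The share of C1qc was 37.5%, 31.2% and 32.0%, and that of C1qa 14.6%, 14.6% and 12.5%. Per kilobase of exon, C1qb ranked above C1qc and C1qc above C1qa in each library.

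C3 and Cfb were far higher after LPS. C3 had values of 880, 5322 and 9431, from 1368, 2437 and 17356 reads. Its log2 ratio to 0 h was 2.59 at 2 h and 3.42 at 4 h, or 1.93 and 2.60 with library totals. Among the reads of C3 and the C1q chains, C3 took 3.53% at 0 h, 10.8% at 2 h and 21.1% at 4 h.

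Factor B showed the widest range of the 9. Its values were 67.5, 2347 and 13548, from 105, 1075 and 24932 reads. Per 1000000 reads this was 6.74 (5.56 to 8.15), 148 (139 to 157) and 763 (754 to 773), so the intervals are far apart. The log2 ratio to 0 h was 5.10 at 2 h and 7.63 at 4 h, or 4.45 and 6.81 with library totals, and Cfb was the only member at least 2-fold higher at 4 h than at 2 h (2.53), a step that 17.9% of all genes made (15.3% with library totals).

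Relative to C3, the component it pairs with in the convertase, Cfb went from 7.13% (5.92 to 8.56) of their joint reads to 30.6% (29.1 to 32.2) and 59.0% (58.5 to 59.4). Per kilobase of exon the ratio of Cfb to C3 was 0.140, 0.803 and 2.62. The annotation has a readthrough gene, Gm20547, at chr17:34856412-34882042 on the same strand, across Cfb and the neighbouring C2, and in the LPS table it had 101, 946 and 21972 reads, close to the reads of Cfb itself. How the counting assigned reads to these 2 overlapping genes is not stated, so the level of Cfb is uncertain. In the AAV table Gm20547 was listed at 0 in 3 samples and at 0.04 TPM in 1.

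Properdin, like the C1q chains, had its highest value at 2 h. Cfp had values of 3517, 7335 and 5767, from 5467, 3359 and 10612 reads, and its log2 ratio to 0 h was 1.06 at 2 h and 0.71 at 4 h, with library totals 0.40 and -0.11, so its direction at 4 h depends on the scaling. Its share of the joint reads of Cfp and C3, which is not corrected for the longer C3 transcript, was 80.0% (79.0 to 80.9) at 0 h and 37.9% (37.4 to 38.5) at 4 h.

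**Figure D2:**
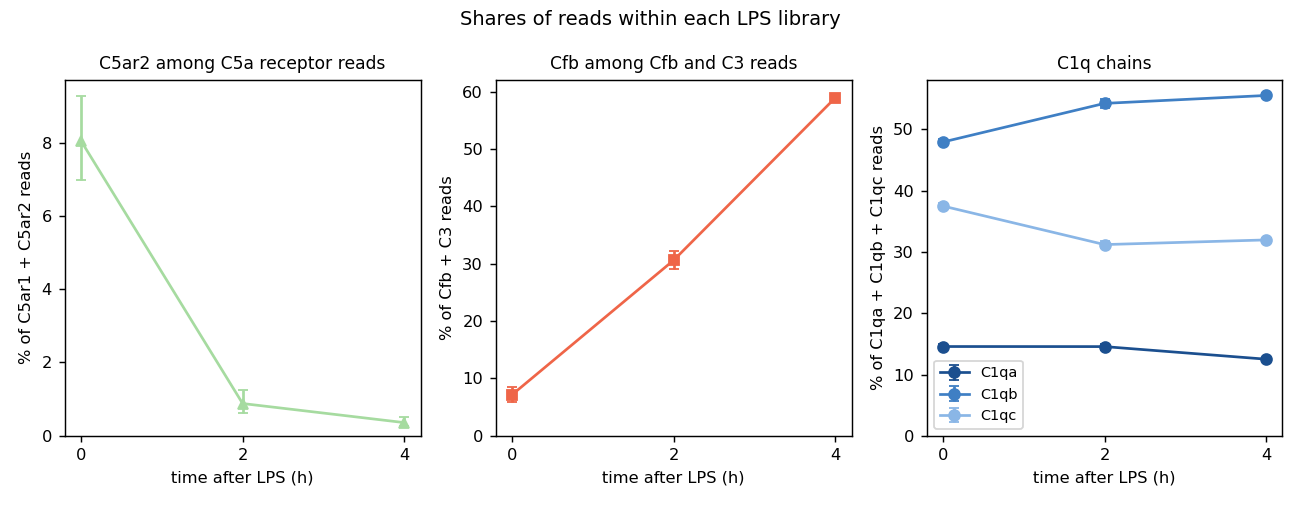
Shares of reads within each LPS library against time (h), in percent, with 95% Wilson intervals for counting error: C5ar2 among C5ar1 and C5ar2 reads (left), Cfb among Cfb and C3 reads (middle) and each chain among C1q reads (right). C5ar2 went from 8.05% to 0.359% and Cfb from 7.13% to 59.0%, while C1qb stayed between 47.9% and 55.5%.

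The 3 anaphylatoxin receptors went separate ways. C3ar1 had values of 8465, 8414 and 15887, from 13160, 3853 and 29236 reads. Its log2 ratio was -0.01 at 2 h (-0.67 with library totals, 0.30 with centring on library medians) and 0.91 at 4 h (0.08 with library totals), so only the step from 2 h to 4 h, 0.92, was well above 0 under every scaling.

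C5ar1 had its highest value at 2 h, with 1300, 7130 and 4822 from 2021, 3265 and 8874 reads. The log2 ratio to 0 h was 2.45 at 2 h and 1.89 at 4 h, or 1.79 and 1.07 with library totals, and from 2 h to 4 h it was -0.56. C3ar1 therefore made up 86.7% of the reads of C3ar1 and C5ar1 at 0 h, 54.1% at 2 h and 76.7% at 4 h.

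C5ar2 was the only member lower at both times, under every scaling. Its value was 114, 63.3 and 17.4, from 177, 29 and 32 reads, which is 11.4 (9.80 to 13.2), 3.99 (2.78 to 5.73) and 0.980 (0.694 to 1.38) per 1000000 reads. The log2 ratio was -0.84 at 2 h and -2.64 at 4 h, with library totals -1.50 and -3.46, and -1.81 from 2 h to 4 h, a step of at least 2-fold that 15.2% of all genes made (17.7% with library totals). The 2 C5a receptors thus moved apart. C5ar2 held 8.05% (6.99 to 9.26) of their joint reads at 0 h, 0.880% (0.614 to 1.26) at 2 h and 0.359% (0.255 to 0.507) at 4 h, which is 11.4, 113 and 277 C5ar1 reads for each C5ar2 read.

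In bulk RNA, fewer cells of a type and less RNA per cell cannot be told apart. Neutrophils also carry C5ar1, and the 8 neutrophil markers had summed values of 4717, 9909 and 7040 in the libraries in which C5ar1 had 1300, 7130 and 4822. Per 1000000 reads the neutrophil sum was 470, 625 and 397, below its 0 h level at 4 h, and C5ar1 was 130, 450 and 272. For fibroblasts, which make C3, the summed value of 8 markers was 479, 924 and 1057, or 47.7, 58.2 and 59.6 per 1000000 reads, of which Pdgfrb alone had values of 17.4, 205 and 513. Their part in the results was not tested.

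Of 47 further complement genes, listed by role, 46 were in the LPS table and 25 passed the filter on low values. At 4 h, 7 of the 25 were at least 2-fold higher and 3 lower, with a median log2 ratio of 0.28, against 22.2% and 23.6% of all genes. With library totals 7 were higher and 8 lower, against 13.8% and 44.3% of all genes, and the median was -0.48, beside -0.82 over all genes. Among the genes of initiation, 4 of 9 were higher: C1ra, a protease of the C1 complex, had values of 21.2, 192 and 339, and C4b, which is cleaved by that complex, 13.5, 26.2 and 66.3. C2, the classical counterpart of factor B, went from 2 reads at 0 h to 53 at 4 h, and it too lies under Gm20547. C1rb was the remaining gene of the 4, on 0, 2 and 5 reads. C1ra and C1rb, like C4b and C4a, are near-identical copies whose reads the counting could have split, so their levels are uncertain. With library totals the log2 ratio at 4 h was 3.14 for C1ra and 1.44 for C4b.

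Of 3 soluble regulators tested, Serping1 (the C1 inhibitor, 8.36, 10.9 and 44.0) and Clu (0, 0 and 16 reads) were at least 2-fold higher, Serping1 with a log2 ratio of 2.27, or 1.51 with library totals. Among 7 other receptors tested, Cd93, a surface glycoprotein once named as a C1q receptor, was at least 2-fold lower, with 9248, 6896 and 4188, a log2 ratio of -1.14 or, with library totals, -1.97. Among the membrane regulators, Cr1l had 1066, 318 and 1727 reads, Cd46 had 40, 0 and 13, and Cd55 had 2, 7 and 20, although Cd55 was well measured in the AAV table, so its LPS counts are uncertain. C8g, on 10, 3 and 2 reads, was the third gene at least 2-fold lower. Of the 8 alternative pathway and terminal genes listed, 5 had no read in any library and C8g alone passed the filter.

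The AAV table was read as TPM (transcripts per 1000000), which are corrected for gene length, so levels can be compared between genes; its depth is unknown. In the AAV-GFP group the order was C1qb at 2943 ± 131 TPM (SD, n = 2), C1qc at 2218 ± 30.6, Cfp at 909 ± 29.0, C1qa at 816 ± 11.3, C5ar1 at 566 ± 30.1, C3ar1 at 472 ± 28.1, C3 at 208 ± 10.98, Cfb at 204 ± 31.2 and C5ar2 at 1.47 ± 0.325. In this order C3 and Cfb overlapped between samples and no other neighbours did. In AAV-Shisa3 BMDMs the order was the same, but there Cfp and C1qa overlapped and C3 lay above Cfb in both samples. The 9 genes summed to 0.841% and 0.827% of the total in the AAV-GFP samples and to 0.938% and 0.914% in the AAV-Shisa3 samples.

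The comparison asks what forced expression of Shisa3, a transmembrane protein of the SHISA family, changes in BMDMs. Shisa3 itself was at 7.88 and 10.85 TPM in AAV-GFP and at 12.31 and 17.81 TPM in AAV-Shisa3, a log2 fold change of 0.63 that did not pass the test (limma, Benjamini-Hochberg adjusted p = 0.138). Endogenous and vector transcripts could not be told apart in it. From separate measurements, the paper on these data reports Shisa3 overexpressed in AAV-Shisa3 BMDMs as mRNA and as protein. In the LPS libraries Shisa3 had 1, 164 and 3174 reads.

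Of the 9 members, 1 (C5ar1) was higher and 0 lower in AAV-Shisa3 at an adjusted p under 0.05 from limma, against 2.23% and 4.1% of the 11218 genes tested. At an unadjusted p under 0.05 the counts were 3 higher (C1qb, C3ar1 and C5ar1) and 1 lower (Cfb), against 8.21% and 19.8%. The AAV-Shisa3 pair lay wholly above the AAV-GFP pair in 5 members and wholly below it in 3, against 18.2% and 41.2% of all genes. The members' median log2 fold change was 0.11, beside -0.10 over all genes tested, and was 0.05 without AAV-Shisa3 replicate 1 and 0.23 with centring on sample medians, beside 0.01 over all genes. An exact permutation test of 2 against 2 samples cannot go below p = 0.333, so calls were taken from the fit across all genes.

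C5ar1 was at 545 and 587 TPM in AAV-GFP and at 773 and 779 TPM in AAV-Shisa3, so both samples of the second group were higher. The log2 fold change was 0.46 (SE 0.072, 95% interval 0.28 to 0.63), with an adjusted p of 0.0295 from limma. Leaving out any 1 of the 4 samples kept the log2 fold change between 0.40 and 0.51 but lost the call, with adjusted p of 0.105 to 0.166 (0.166 and 0.147 without AAV-GFP replicate 1 or 2, and 0.105 and 0.106 without AAV-Shisa3 replicate 1 or 2). Without the trend in the variance the adjusted p was 0.0836.

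Markers of neutrophils, which carry C5ar1, moved in the same direction. In 7 of 7 tested markers the AAV-Shisa3 pair lay wholly above the AAV-GFP pair, against 18.2% of all genes. Of these markers 2 (Camp and Ngp) were higher past the test, against 2.23% of all genes. The summed TPM was 593 and 565 in AAV-GFP and 1090 and 681 in AAV-Shisa3. C5ar1 was at 773 TPM in the sample with 1090 and at 779 TPM in that with 681. Ly6g, a defining marker of mature neutrophils, was at 0.11, 0.11, 0.29 and 0.10 TPM. The part of such cells in the C5ar1 difference was not tested. None of the 8 macrophage markers passed the test, and they summed to 36097 and 34054 against 37144 and 34610 TPM.

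The other receptors did not pass. C3ar1 was at 492 and 452 TPM in AAV-GFP and 563 and 534 TPM in AAV-Shisa3, with a log2 fold change of 0.22 (95% interval 0.03 to 0.41) and an adjusted p of 0.143. C5ar2 was near the filter on low values in all samples, at 1.70 and 1.24 against 1.06 and 1.07 TPM, with a log2 fold change of -0.25 (-0.76 to 0.26) and an adjusted p of 0.463, and over 11 alternatives that fold change ran from -0.41 to -0.12. The ratio of C5ar1 to C5ar2 was 320 and 474 in AAV-GFP and 729 and 728 in AAV-Shisa3, without overlap, but its denominator is close to 1 TPM.

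Among the C1q chains none passed. C1qb was at 3035 and 2850 TPM against 3461 and 3336 TPM, a log2 fold change of 0.21 (0.02 to 0.39) with an adjusted p of 0.144. C1qc was at 2196 and 2239 against 2380 and 2272 TPM (0.07, -0.10 to 0.24, adjusted p = 0.554). C1qa overlapped between groups, at 824 and 808 against 822 and 949 TPM (0.12, -0.10 to 0.33, adjusted p = 0.435). Leaving out 1 sample moved the log2 fold change of C1qa between 0.01 and 0.22 and that of C1qc between 0.04 and 0.10. C1qb made up 50.1% and 48.3% of the C1q sum in AAV-GFP and 51.9% and 50.9% in AAV-Shisa3, a difference that was not tested.

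C3 and the alternative pathway genes also missed the threshold. Cfb, at 182 and 226 TPM in AAV-GFP and 153 and 154 TPM in AAV-Shisa3, had a log2 fold change of -0.40 (-0.68 to -0.12) and an adjusted p of 0.0917. C3 was at 200 and 216 against 196 and 178 TPM (-0.15, -0.36 to 0.06, adjusted p = 0.292). Cfp was at 929 and 888 against 1032 and 939 TPM (0.11, -0.08 to 0.31, adjusted p = 0.378), a log2 fold change that ran from 0.05 to 0.18 with 1 sample left out. Both groups separated in each of these 3 genes, with Cfb and C3 below and Cfp above, but the intervals of C3 and Cfp include 0.

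**Figure D3:**
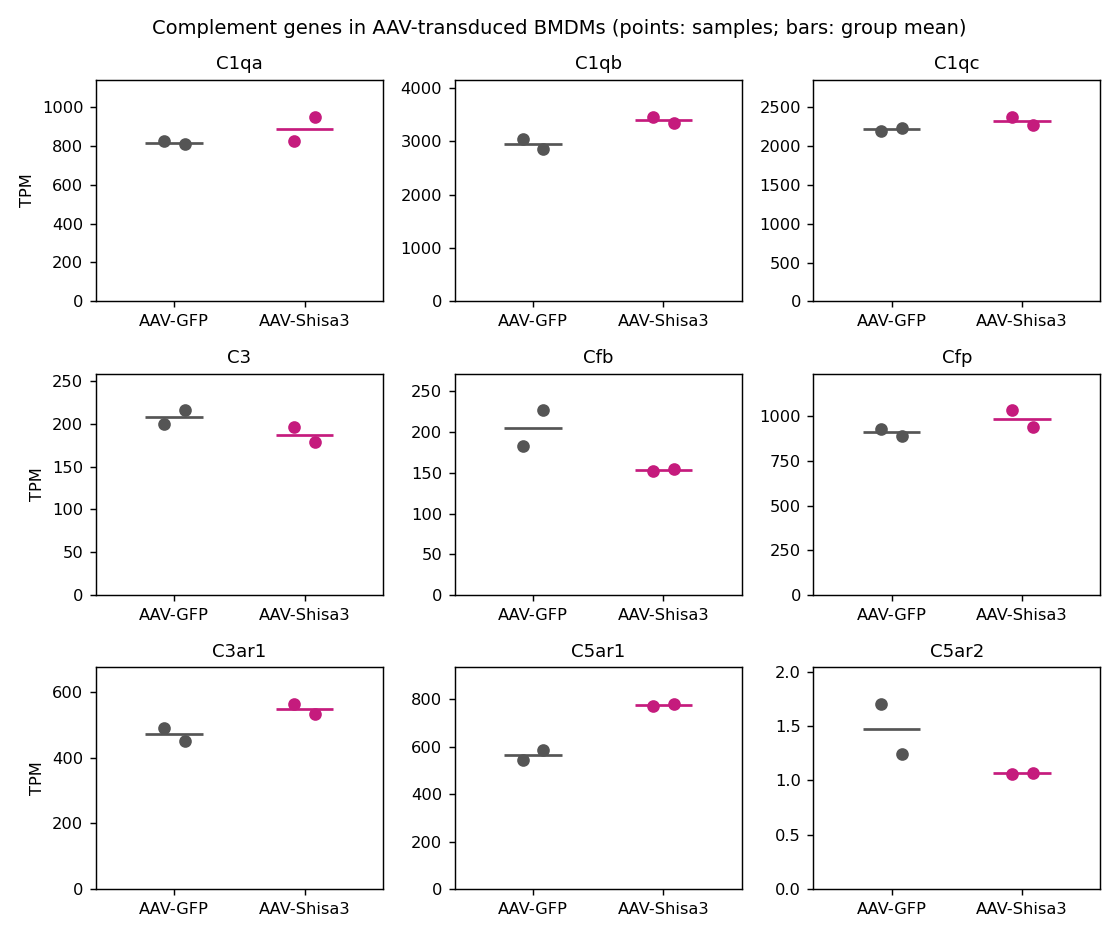
TPM of the 9 complement genes in AAV-GFP and AAV-Shisa3 BMDMs; points are the 2 samples of a group, bars the group mean, and each panel has its own axis from 0. C5ar1 (545 and 587 against 773 and 779 TPM) was the only one to pass the test; C1qa is the only one whose groups overlap.

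Of the 46 further complement genes in the AAV table, 16 passed the filter on low values, and 1 of these was higher and 2 lower past the test, against 2.23% and 4.1% of all genes tested, with a median log2 fold change of -0.11 beside -0.10 over all genes. The sign of this median was not stable, at 0.07 without AAV-GFP replicate 1, 0.02 without AAV-Shisa3 replicate 2 and 0.01 with centring on sample medians. C1qbp, a mitochondrial protein first isolated as a binder of C1q, was at 59.8 and 62.1 TPM in AAV-GFP and 83.5 and 84.6 TPM in AAV-Shisa3 (0.46, adjusted p = 0.0321). Cd93 was at 83.9 and 89.0 against 55.5 and 54.0 TPM (-0.65, adjusted p = 0.0206). Cd55, which breaks up C3 convertases on the cell's own surface, was at 140 and 143 against 104 and 100 TPM (-0.46, adjusted p = 0.0292), a call that centring on sample medians took away (0.0574). All 3 calls were lost when any 1 sample was left out, with adjusted p of 0.0844 to 0.163 over these fits, while the log2 fold changes stayed between 0.43 and 0.48 for C1qbp, -0.69 and -0.61 for Cd93, and -0.49 and -0.44 for Cd55.

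C5ar1 was higher in both experiments, whereas Cfb and C3, higher after LPS, had AAV-Shisa3 values below those of AAV-GFP without passing the test. The size of differences that missed the threshold was not stable: the log2 fold change of C3 was -0.04 with centring on sample medians, -0.08 without AAV-Shisa3 replicate 2 and -0.10 without AAV-GFP replicate 2, and that of Cfb was -0.25 without AAV-GFP replicate 2. The log2 ratio at 4 h of LPS and the log2 fold change in AAV-Shisa3 were 7.63 and -0.40 for Cfb, 3.42 and -0.15 for C3, 1.89 and 0.46 for C5ar1, and -2.64 and -0.25 for C5ar2. With library totals the LPS ratios were 6.81, 2.60, 1.07 and -3.46. The tables were normalized separately, and the LPS ratios have no replicates, so the 2 quantities were not tested against each other.

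**Figure D4:**
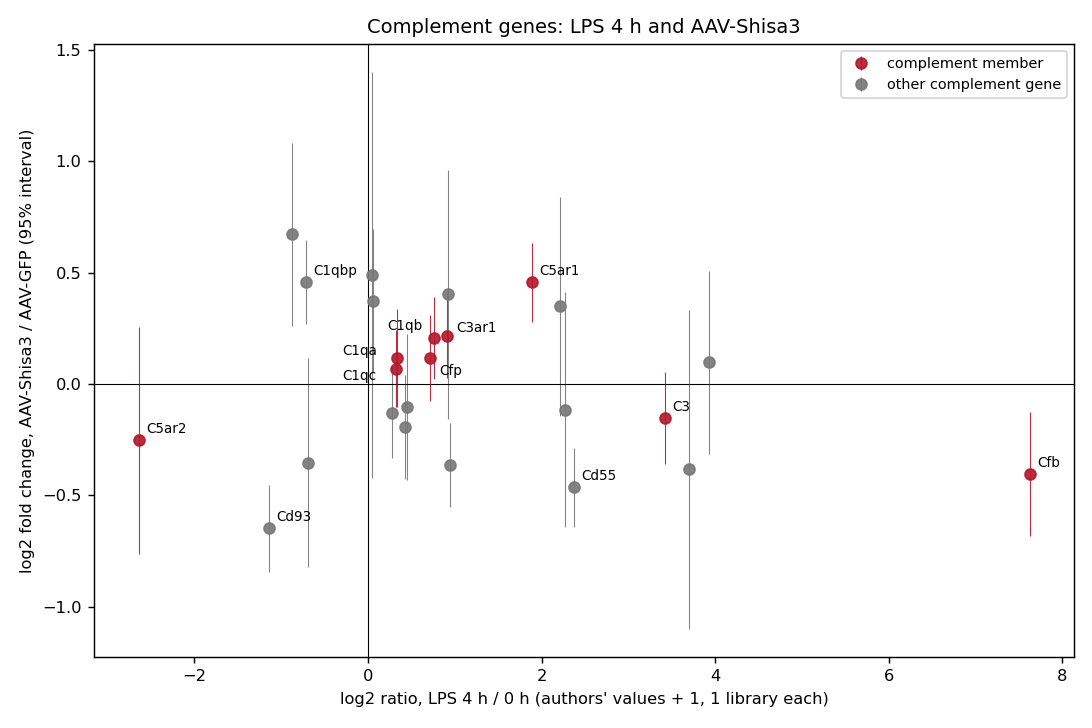
Log2 ratio of 4 h against 0 h of LPS (authors' values plus 1, 1 library each, horizontal) and log2 fold change of AAV-Shisa3 against AAV-GFP with its 95% interval from limma (vertical), for the 9 complement genes (red) and other complement genes that passed both filters (grey; those past the test are named). C5ar1 is high on both axes (1.89 and 0.46), whereas Cfb is far right at 7.63 and below 0 at -0.40.

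Over 3 differences (2 h and 4 h of LPS against 0 h, and AAV-Shisa3 against AAV-GFP), the genes with the nearest pattern among 10544 genes were found by Euclidean distance. Nearest to C5ar1 were Ddhd1 (0.109), Rel (0.118) and Gm16199 (0.229). In the order of the 3 differences, Ddhd1 had log2 values of 2.54, 1.87 and 0.51, and Rel, an NF-κB subunit, 2.52, 1.94 and 0.38. How near the nearest patterns of genes picked at random would be was not tested. Nearest to C3 were Ifitm1 (0.174), Psme2 (0.184) and Dhx58 (0.189), and to Cfb Gpr31b (0.226), Slfn4 (0.379) and Cd38 (0.384). Cfp was nearest to Irf5 (0.031), Sfpq (0.047) and Unc45a (0.056), C3ar1 to Erap1 (0.101), Nus1 (0.105) and Foxn2 (0.119), and C5ar2 to Gm10642 (0.084), Trpv4 (0.089) and Adcy9 (0.089). For the C1q chains they were Cox4i1 (0.051), Bvht (0.079) and Nomo1 (0.086) for C1qa, Aggf1 (0.054), Mdn1 (0.081) and Snrpb (0.104) for C1qb, and S100a1 (0.062), Ppan (0.065) and 4931440P22Rik (0.070) for C1qc.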

How the data were processed

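RNA was measured in 3 LPS libraries and 4 AAV samples of mouse BMDMs. Sample groups were taken from the labels. Total RNA was used with an Illumina library kit (VAHTS Universal V6), and no source used here names the aligner, the counter or the annotation. The submitters' processing notes name mm9, and positions and exon lengths came from the GENCODE M21 annotation of GRCm38 by gene identifier. The LPS table as deposited holds a signal for each gene, which the values show to be read counts over 1 factor for each library. No unmapped value column was left. The AAV table names no unit, but its 2-decimal values, with sums of 999778 to 999818 per sample, were read as TPM made by the authors over all genes before deposit.

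LPS genes with a mean of at least 1 were compared as log2(value + 1), called at 2-fold; no count test could be fitted without replicates. AAV genes whose mean reached 1 TPM were tested with limma's trended test on log2(TPM + 1), which understates the change of low genes, with Benjamini-Hochberg adjustment over all genes at a threshold of 0.05. Members and gene lists were chosen with earlier results of these data known. The named genes were every member, other complement genes past the AAV test or past 2-fold at 4 h of LPS with at least 100 reads or a value of at least 10, Shisa3, Tnf among LPS response genes, and the 3 nearest patterns of each member. The cell type markers named (from the marker lists), C1rb, Clu, C8g, Cr1l, Calr and Gm20547 were chosen after their values were seen. Values of 1 listed gene are not reported here. Where a symbol was repeated in the LPS table, the row with the larger sum was used. The test was tested on simulated data. Alternatives were scalings (edgeR TMM factors, library totals, medians), pseudocounts of 0.1 and 5, filters, no variance trend, a replicate block and leaving out each sample. R 4.3.3, limma 3.58.1, edgeR 4.0.16, Python 3.11.15, scipy 1.17.1, pandas 2.3.3, numpy 2.4.6 and matplotlib 3.10.9 were used.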

Additional observations from a re-analysis of the deposited data

How the results depend on the processing

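In the AAV comparison, 250 genes were higher and 460 lower. Without the variance trend the counts were 1 and 4, with centring on sample medians 410 and 230, with a replicate block 424 and 851, and without a filter 0 and 0 over 20300 genes, where limma gave 1118 and 2411 at an unadjusted p under 0.05. Leaving out 1 sample gave 0 to 32 higher and 0 to 10 lower. Among the members, the 1 call (C5ar1) went to 0 without the trend (adjusted p = 0.0836), without a filter (0.124) and in each fit that left out 1 sample (0 to 0), and its adjusted p ran from 0.0201 to 0.166 over 11 alternatives, 5 of them past the threshold. The other complement genes, 1 higher and 2 lower, gave 0 and 0 without the trend, without a filter and with any 1 sample left out, 1 and 1 with centring, and 2 higher with at least 1 TPM in every sample. A fit that left out 1 sample assumed that the lone sample varied like the other group. The replicate numbers are not stated to mark shared mice or days, so the block was not used in the main fit. The block changed no member's call and gave 3 other complement genes lower. Across genes the deviations of same-numbered samples correlated at 0.188, which with 2 pairs cannot decide whether samples were paired. A scaling without mitochondrial and ribosomal protein genes, chosen after seeing the data, gave 254 and 408 calls and the same 1 member.

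For LPS, the members at least 2-fold higher at 2 h were 5 on the authors' scale, 3 with library totals, 3 with TMM factors and 6 with centring on library medians. Of all 17854 genes, 3668, 2448, 3691 and 4808 were higher, in the same order. Members lower at 2 h were 0, 1, 0 and 0, beside 4406, 7191, 4642 and 3454 of all genes. At 4 h the 3 members higher became 6 with centring on library medians, where all genes higher went from 3958 to 5285. The 3 other complement genes lower became 8 with library totals and 5 without a filter. All genes lower went from 4207 to 7912 with library totals and were 4634 of 48440 without a filter. The signs of C1qa, C1qb, C1qc and Cfp at 4 h, of C1qc at 2 h and of C3ar1 at 2 h depended on the scaling. Pseudocounts and filters moved none of the 27 member values beyond their counting interval, whereas library totals moved 26, centring 21 and TMM factors 9. Apart from the fewer samples or more genes of some fits, the cause was not tested. The 2 h library has the fewest reads, so C5ar2 there rests on 29 reads, and the depth of the AAV samples is unknown.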

Other observations

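Without LPS, the ratio of Cfb to C3 had other values in the LPS table than in the AAV table. Per kilobase it was 0.140 in the unstimulated LPS library and 0.803 at 2 h, while in TPM it was 0.912 and 1.05 in the AAV-GFP samples and 0.779 and 0.864 in the AAV-Shisa3 samples, none of which received LPS. The Cfb level of the LPS table is uncertain, since the overlapping Gm20547 had 101 reads beside 105 of Cfb at 0 h and about 0 TPM in the AAV table. The tables were made separately, so the ratios were not tested against each other, and no sample without virus was sequenced beside the AAV groups.

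Cd55 had 2, 7 and 20 reads in the LPS libraries but 100 to 143 TPM in the AAV samples. Calr was at 880 and 878 TPM in AAV-GFP and at 717 and 649 TPM in AAV-Shisa3, with an adjusted p of 0.0517.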
